A study of Arabidopsis thaliana with 36 samples.

Results

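PILS2 (AT1G71090), PILS3 (AT1G76520), PILS5 (AT2G17500) and PILS6 (AT5G01990) are 4 of the 7 PIN-LIKES genes of Arabidopsis thaliana, and they were taken by locus identifier from tables of 32678 genes. The study followed mRNA in roots of Col-0 seedlings treated with 10 µM NAA, a synthetic auxin, and sequenced 36 libraries in 12 groups of 3. Both genotypes carried slr-1, a dominant mutation that stabilises the repressor IAA14 and leaves roots without lateral roots. The second genotype, CASP1::shy2-2/slr-1, also carried shy2-2, a stabilised form of the repressor IAA3, under the CASP1 promoter, which is active in differentiating endodermis, and is also called the transgenic genotype here. Each genotype was left untreated or exposed to NAA for 2, 4, 8, 16 or 24 h, and all plants were harvested at 7 days of age. The lowest 3 mm of the root tip and the shoot with the hypocotyl were cut away, so a library holds all tissues of the remaining root. How many plants or independent transgenic lines were used is not given in the sources used here. Nothing in them says that the 3 libraries of a group came from separate cultures, so p-values measure the spread between these libraries, which may be technical.

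PILS proteins are membrane proteins of the endoplasmic reticulum with a predicted fold like that of the PIN auxin exporters of the plasma membrane. They are thought to move auxin between the cytosol and the endoplasmic reticulum lumen, and raising their levels lowers the auxin signal that reaches the nucleus. PILS2 and PILS5 are known for their effect on root growth, root hair length and the ratio of free to conjugated auxin. PILS6 is known for a link between temperature and nuclear auxin signalling in roots, and PILS3 for work on growth of the apical hook and shoot. Their transcript levels may thus bear on how sensitive a tissue is to auxin, and protein levels were not measured here.

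In the RefSeq annotation of TAIR10.1, PILS2 lies on the plus strand at chr1:26812156-26814173, with exons of 2018 bases in all. PILS3 lies on the plus strand at chr1:28714765-28717910, with 2413 exon bases, and PILS4 begins 158 bases after its end on the same strand. PILS5 lies on the plus strand at chr2:7606728-7609278, with 1780 exon bases, and PILS6 on the minus strand at chr5:377231-379911, with 1749. The 250 bases before the annotated start of PILS2 and PILS3 are printed because these members moved in opposite directions in slr-1 within 2 h of NAA. They come from the RefSeq genome, plus strand, 5′ to 3′, at chr1:26811906-26812155 and chr1:28714515-28714764, and capitals mark matches to the motifs searched.
PILS2: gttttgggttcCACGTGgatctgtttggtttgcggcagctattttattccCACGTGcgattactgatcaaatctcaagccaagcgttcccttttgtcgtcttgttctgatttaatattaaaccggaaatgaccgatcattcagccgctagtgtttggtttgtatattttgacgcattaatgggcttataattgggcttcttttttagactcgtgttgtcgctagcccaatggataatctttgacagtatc
PILS3: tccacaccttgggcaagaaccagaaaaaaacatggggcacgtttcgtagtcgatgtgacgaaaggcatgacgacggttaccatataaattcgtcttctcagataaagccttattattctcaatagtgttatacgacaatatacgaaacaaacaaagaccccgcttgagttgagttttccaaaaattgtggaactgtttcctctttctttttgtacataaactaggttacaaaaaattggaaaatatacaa
The search covered both strands for TGTCTC, for TGTCGG and for TGTCCC, sequences that auxin response factors are known to bind, and for the G-box CACGTG. PILS2 held 2 copies of CACGTG, with first bases 239 and 200 bases before its start, and PILS3 held none of the 4 motifs in this window. Of 27437 protein-coding genes, 10.95% held TGTCTC, 4.16% TGTCGG, 3.91% TGTCCC and 6.49% CACGTG in the same 250-base window. A motif match is a description of letters and not a binding site, and no match says only that these letters are not in this window. The window of PILS6 lies almost wholly inside the neighbouring gene AT5G02000 and is not printed.

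The libraries held 28.1 to 49.0 M reads in genes, with a median of 39.3 M, and all 4 members passed the filter on low counts that kept 20939 genes. Correlation of log2 CPM (counts scaled by library total and TMM factor) within groups ran from 0.967 to 0.995. Replicate 3 of untreated slr-1, replicate 3 of the transgenic genotype at 8 h and replicate 3 of both genotypes at 16 h had lower correlations with their partners than the partners had with each other. So did replicate 2 of the transgenic genotype at 2 h, with 0.978 and 0.967 against 0.990, which is also the 1 library whose code ends in x. The same held for replicate 2 of the untreated transgenic genotype (0.984 and 0.984 against 0.995). It also held for replicate 3 of slr-1 at 4 h (0.985 and 0.984 against 0.992) and at 8 h (0.980 and 0.984 against 0.988). Some library ranks so in any group of 3, so only the size of the gap differs. Sample codes end in n in 13 libraries, in x in 1 and in nothing in 22, and the labels do not give what the endings mean. Every 2 h library had an ending and no untreated or 24 h library did. Markers of the removed parts were low for the tip (4 root tip and cap genes, 0.111 to 9.44 CPM in sum) and present for the shoot (5 genes, 26.0 to 189 CPM). Shoot markers summed to 116 to 189 CPM in untreated slr-1, 79.1 to 109 in the untreated transgenic genotype and 55.2 to 62.8 in slr-1 at 2 h, and root tip markers reached 3.32 to 6.33 CPM in slr-1 and 4.22 to 9.44 in the transgenic genotype at 16 h; their part in the results was not tested. The 8 endodermal markers summed to 63.3 to 221 CPM in untreated slr-1 and 159 to 260 CPM in the untreated transgenic genotype. Transcripts of IAA3 (AT1G04240), which the transgene would add to, were 38.4 to 42.4 and 38.6 to 53.3 CPM in these groups, so its level overlapped in untreated roots. From 4 h of NAA on it was lower in the transgenic genotype with no overlap, at 74.2 to 83.9 against 41.1 to 48.0 CPM at 4 h and 35.5 to 39.7 against 22.7 to 24.6 CPM at 24 h. These counts do not tell transgene transcripts from the native gene's, and the slr-1 mutation cannot be seen in a level.

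PILS5 was the most abundant of these transcripts per length of exon in untreated roots. In untreated slr-1 roots PILS5 stood at 237 ± 31.7 CPM per kb (mean ± SD, n = 3), against 24.1 ± 3.27 for PILS3, 24.0 ± 2.42 for PILS2 and 17.8 ± 2.13 for PILS6. In untreated transgenic roots the levels per kb were 409 ± 31.6 for PILS5, 46.2 ± 2.52 for PILS3, 21.6 ± 0.186 for PILS2 and 20.8 ± 0.806 for PILS6. Across the 12 groups the highest mean exceeded the lowest 24.2 times for PILS5, 4.22 times for PILS3, 2.11 times for PILS6 and 1.33 times for PILS2. Of the 4, PILS5 was thus both the most abundant in untreated roots and the one whose level differed most between groups.

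**Figure D1:**
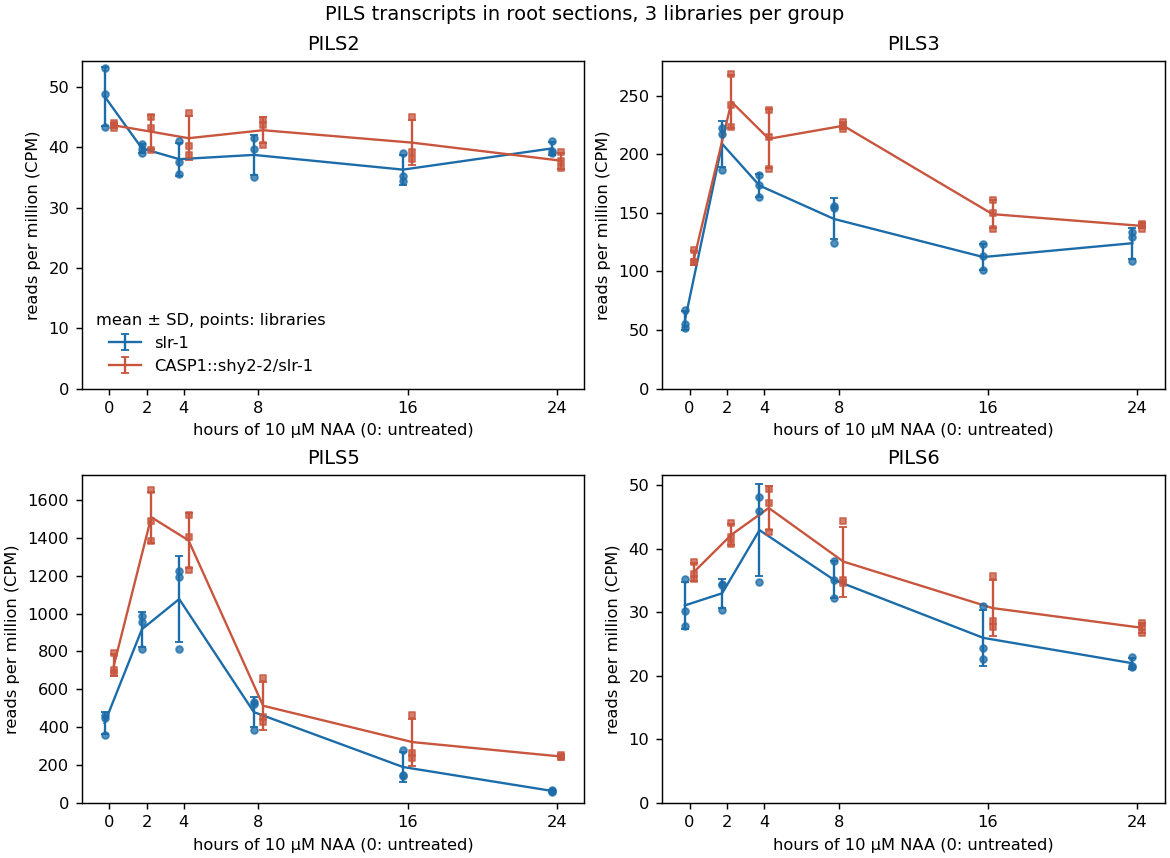
CPM of each member against hours of NAA in both genotypes, with each library as a point and the line and bars giving the mean ± SD of 3 libraries. PILS3 and PILS5 are at their highest group means at 2 or 4 h, PILS5 falls below its untreated level by 16 h, and PILS2 stays between 34.5 and 53.2 CPM.

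The time courses were tested with edgeR's quasi-likelihood test in 1 fit over the 36 libraries, with Benjamini-Hochberg adjustment over all 20939 genes and a threshold of 0.05. Over the 5 times against untreated roots, 4 of 4 members changed in slr-1, where 81.4% of all genes tested did so. In the transgenic genotype, 3 of 4 changed, against 73% of all genes. The course differed between genotypes for 2 of 4, PILS3 and PILS5, against 26.4% of all genes. With 4 members, a count moves much with each gene, so the description rests on the size and timing of each member.

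PILS3 rose at every NAA time in both genotypes, most at 2 h and more in slr-1, where it started lower. In untreated slr-1 the 3 libraries gave 51.8, 55.4 and 66.9 CPM, and at 2 h of NAA they gave 186, 223 and 217. At 4 h the values were 163.2, 183 and 174 CPM, at 8 h 156, 154 and 125, at 16 h 101, 113 and 123, and at 24 h 109, 134 and 129. All 15 treated libraries of slr-1 lay above all 3 untreated ones, and the 2 h libraries lay above every later one. The log2 change against untreated was 1.85 ± 0.11 (SE) at 2 h, a 3.598-fold rise with an adjusted p of 4.1e-12 by edgeR's quasi-likelihood test, at a time when 42.8% of all genes were called. It was 1.58 ± 0.11 at 4 h, 1.32 ± 0.11 at 8 h, 0.95 ± 0.11 at 16 h and 1.097 ± 0.11 at 24 h, and the step from 8 to 16 h was a fall of its own (-0.37 ± 0.11, adjusted p = 0.027 by edgeR). That step was lost (highest adjusted p = 0.178) without replicate 1 or 2 at 8 h or replicate 1 or 2 at 16 h, with total count scaling and with only the groups compared.

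In the transgenic genotype PILS3 started at 108, 118 and 108 CPM and reached 269, 242 and 224 CPM at 2 h. It stood at 238, 215 and 188 CPM at 4 h and at 227, 221 and 224 at 8 h, then at 136, 149.7 and 160.6 at 16 h and at 137, 141 and 139 at 24 h. The treated libraries again lay above all untreated ones, and those up to 8 h lay above the later ones. The log2 change was 1.14 ± 0.11 at 2 h, 0.94 ± 0.11 at 4 h, 1.01 ± 0.11 at 8 h, 0.42 ± 0.11 at 16 h and 0.32 ± 0.11 at 24 h, all past the threshold in edgeR's test, with adjusted p from 1.72e-08 at 2 h to 0.0182 at 24 h. The 24 h call was lost without replicate 1 or without replicate 3 of the untreated group (adjusted p up to 0.0554). The step from 8 to 16 h was -0.59 ± 0.11 (adjusted p = 0.00055 by edgeR), and as in slr-1 it was the one step called.

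Untreated transgenic roots held more PILS3 than untreated slr-1 roots, by 0.94 ± 0.11 log2 or 1.92-fold (adjusted p = 5.24e-07 by edgeR), and no library of one genotype overlapped the other. PILS3 was also higher at 8 h (0.63 ± 0.11, adjusted p = 0.000169) and at 16 h (0.41 ± 0.11, adjusted p = 0.0142). The differences at 2 h (0.23 ± 0.11), 4 h (0.30 ± 0.11) and 24 h (0.16 ± 0.11) did not pass the same test. The libraries of the genotypes did not overlap at any time. The gap was narrow at 2 h (223.5 above 222.8 CPM) and at 24 h (136.5 above 133.7). How many of all genes show no overlap was not counted. The 4 h difference (adjusted p = 0.0551) passed in 18 of the 36 fits that left out 1 library, with RLE size factors (PILS3 adjusted p = 0.0434) and with DESeq2 (0.0249). At 16 h the call was lost without replicate 1 of slr-1 or replicate 3 of the transgenic genotype and with only the groups compared in the fit (adjusted p = 0.152).

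The response of PILS3 to NAA, as log2 change, was smaller in CASP1::shy2-2/slr-1 at 4 of the 5 times by the test of the difference itself. The difference between the responses was -0.71 ± 0.15 at 2 h (adjusted p = 0.00349 by edgeR), -0.64 ± 0.15 at 4 h (adjusted p = 0.00875), -0.53 ± 0.15 at 16 h (adjusted p = 0.0251) and -0.78 ± 0.15 at 24 h (adjusted p = 0.000757). At 8 h it was -0.31 ± 0.15 and did not pass (adjusted p = 0.175). Levels at 2 h lay close together in the genotypes, at 209 ± 19.6 and 245 ± 22.7 CPM, while the untreated levels lay apart, at 58.0 ± 7.89 and 111 ± 6.09. The 16 h call was lost without replicate 1 or 2 of untreated slr-1 or replicate 1 of the transgenic genotype at 16 h, and without both 16 h replicates numbered 3 (PILS3 adjusted p = 0.0598). The 4 h call was lost among the libraries with no code suffix (PILS3 adjusted p = 0.087).

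In order of group means, PILS3 was highest in the transgenic genotype at 2, 8 and 4 h, then in slr-1 at 2 and 4 h, and lowest in untreated slr-1. Of the 11 pairs of neighbours in that order, 7 had libraries that overlapped. The 4 that did not were slr-1 at 2 h above slr-1 at 4 h, slr-1 at 4 h above the transgenic genotype at 16 h, the transgenic genotype at 24 h above slr-1 at 24 h, and the untreated pair.

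PILS5 rose early and then fell far below its starting level, with the fall deepest in slr-1 at 24 h. Untreated slr-1 libraries gave 446, 462 and 357 CPM, and those at 2 h gave 811, 987 and 954. At 4 h the values were 1224, 1192 and 815 CPM, and at 8 h 519, 532 and 387. At 16 h they were 141, 147 and 279 CPM, and at 24 h 59.3, 62.3 and 65.3. The 2 h and 4 h libraries all lay above the untreated ones, the 8 h libraries overlapped them, and the 16 h and 24 h libraries all lay below them. The log2 change was 1.12 ± 0.23 at 2 h (adjusted p = 0.000332 by edgeR) and 1.35 ± 0.23 at 4 h (adjusted p = 4.69e-05), when 42.1% of all genes were called. At 8 h it was 0.19 ± 0.23 and did not pass (adjusted p = 0.553), with 35.8% of genes called at that time. It was -1.16 ± 0.23 at 16 h (adjusted p = 0.000344) and -2.76 ± 0.24 at 24 h (adjusted p = 7.33e-10), which leaves 0.148 of the untreated level.

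The fall of PILS5 in slr-1 went on from step to step. From 4 to 8 h the log2 change was -1.17 ± 0.23 (adjusted p = 0.00135 by edgeR), with 10% of all genes called in that step. From 8 to 16 h it was -1.34 ± 0.23 (adjusted p = 0.000193), with 9.81% of genes called, and from 16 to 24 h it was -1.60 ± 0.23 (adjusted p = 2e-05), with 14.8%. PILS3 and PILS6 were called with it in the step from 8 to 16 h, and PILS5 alone of the 4 members in the others. With only the groups compared in the fit, the 8 to 16 h step of PILS5 had an adjusted p of 0.0572.

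Transgenic roots followed the same order of rise and fall for PILS5, from a higher start to a higher end. The untreated libraries gave 703, 688 and 792 CPM, the 2 h libraries 1492, 1652 and 1386, and the 4 h libraries 1522, 1407 and 1233. Values at 8 h were 454, 425 and 659 CPM, at 16 h 234, 264 and 463, and at 24 h 252, 240.1 and 240.1. All libraries from 8 h on lay below the untreated range, and replicate 3 was the highest of its group at 8 and 16 h. The log2 change was 1.05 ± 0.23 at 2 h (adjusted p = 0.00104 by edgeR), with 31.1% of all genes called, and 0.93 ± 0.23 at 4 h (adjusted p = 0.00428), with 22.5%. At 8 h it was -0.51 ± 0.23 and did not pass (adjusted p = 0.142), with 14.9% of genes called. Without replicate 3 of untreated slr-1 and replicate 3 of this 8 h group it was -0.72 and passed (PILS5 adjusted p = 0.0456), and it also passed without both 16 h replicates numbered 3 (adjusted p = 0.0224). It was -1.18 ± 0.23 at 16 h (adjusted p = 0.000376), with 29.7% of genes called, and -1.58 ± 0.23 at 24 h (adjusted p = 7.42e-06), with 42.6%. The one step called was that from 4 to 8 h, at -1.44 ± 0.23 (adjusted p = 0.000182), against 15.6% of all genes. The step from 8 to 16 h was -0.68 ± 0.23 (adjusted p = 0.0541).

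PILS5 was higher in the transgenic genotype than in slr-1 at both ends of the course. The difference was 0.79 ± 0.23 log2 in untreated roots (adjusted p = 0.0136 by edgeR), 0.72 ± 0.23 at 2 h (adjusted p = 0.0284) and 0.76 ± 0.23 at 16 h (adjusted p = 0.0346). It was 1.97 ± 0.24 at 24 h, or 3.92-fold (adjusted p = 4.53e-07), and the libraries of the 2 genotypes did not overlap at 0, 2, 4 or 24 h. At 4 h (0.37 ± 0.23) and 8 h (0.097 ± 0.23) it did not pass. At these times the genotypes held unequal numbers of n libraries. With the same ending, the transgenic libraries were the higher ones, which rests on few libraries each and was not tested. At 4 h they gave 1522 CPM against 1224 and 1192 with no suffix, and 1407 and 1233 against 815 with n. At 8 h they gave 659 CPM against 519 and 532 with no suffix, and 454 and 425 against 387 with n. The library at 659 CPM is replicate 3, which stood apart from its partners. The 8 h difference turned negative without it or without replicate 3 of slr-1 at 8 h (down to -0.12). The untreated call was lost without replicate 3 of either untreated group (adjusted p up to 0.0545), the 2 h call without replicate 1 or 3 of slr-1 or replicate 1 or 2 of the transgenic genotype at that time (up to 0.116). The 16 h call was lost without replicate 1 or 2 of slr-1 or replicate 3 of the transgenic genotype (up to 0.314), with log2 differences from 0.41 to 1.15 over the libraries left out, and with only the groups compared (PILS5 adjusted p = 0.435). The genotypes at 16 h were the one comparison, of those checked, in which same-numbered libraries deviated together. With the replicate number as a block in the 16 h groups alone, the PILS5 difference was 0.78 (adjusted p = 0.000906 by edgeR). That of PILS3 was 0.41 (adjusted p = 0.0108).

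By the test of the difference in response, PILS5 fell less in the transgenic genotype at 24 h, by 1.18 ± 0.32 log2 (95% interval 0.52 to 1.85, adjusted p = 0.0147 by edgeR). At 2 h the difference in response was -0.069 ± 0.32, at 4 h -0.42 ± 0.32, at 8 h -0.69 ± 0.32 and at 16 h -0.024 ± 0.32, and none of these passed. The genotypes were therefore told apart by PILS5 in level at several times and in response at 24 h. Of the 4 members, PILS3 alone was called in the difference in response at 2 h (15.6% of all genes), 4 h (11.9%) and 16 h (9.44%). PILS3 and PILS5 were called at 24 h (13.8%). At 8 h none was called by edgeR, against 11.6% of genes, and PILS2 and PILS5 had an unadjusted p under 0.05, while DESeq2 called none.

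**Figure D2:**
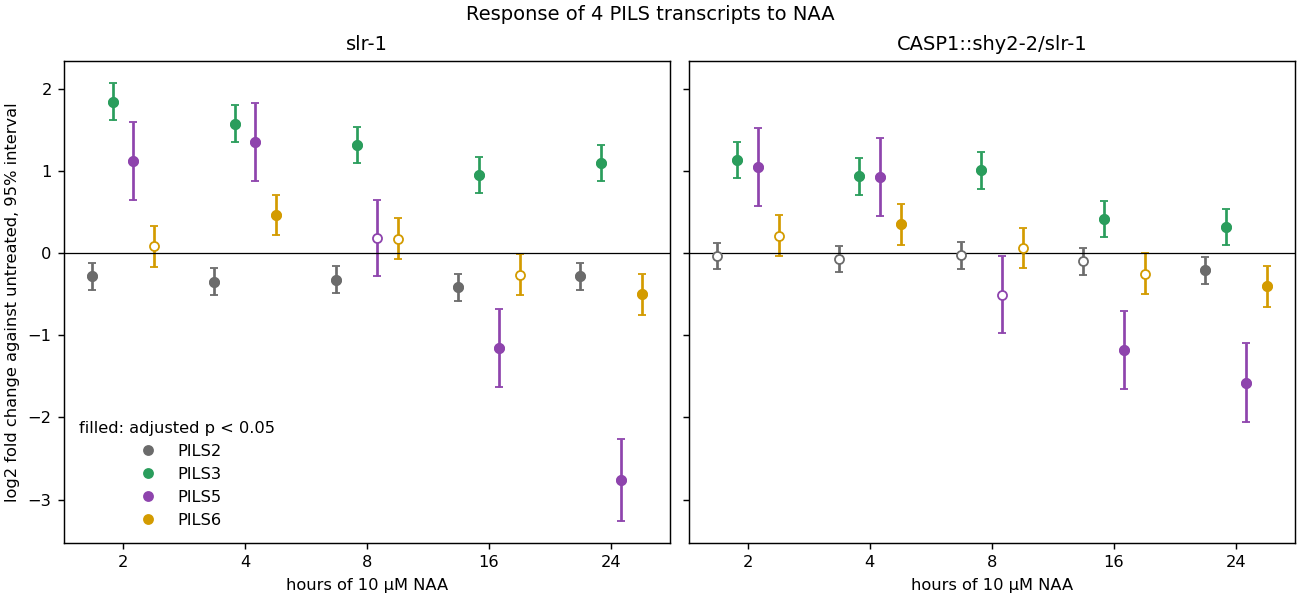
Log2 fold change of each member against untreated roots of the same genotype at 5 NAA times, with 95% intervals and filled points where the adjusted p is under 0.05. PILS5 runs from 1.12 at 2 h to -2.76 at 24 h in slr-1 and from 1.05 to -1.58 in CASP1::shy2-2/slr-1, while PILS2 stays within 0.42 of zero.

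Xylem and endodermal markers summed to less at 24 h than in untreated roots of both genotypes, and other cell type markers did not all do so. The part of any of these cell types in the fall of PILS5 was not tested. The 4 xylem markers summed to 481 to 522 CPM in untreated slr-1, 182 to 251 at 16 h and 99.4 to 115 at 24 h, and in CASP1::shy2-2/slr-1 to 500.5 to 638, 138 to 197 and 59.0 to 74.0. At 24 h the xylem sums were thus lower in the transgenic genotype, where PILS5 was higher (244 ± 6.78 CPM against 62.3 ± 3.03 in slr-1). The 8 endodermal markers summed to 28.4 to 30.0 CPM in slr-1 and 28.1 to 33.2 in the transgenic genotype at 24 h, with 1 marker at 0 in all 3 libraries of each of these groups. At 4 h they summed to 40.4 to 57.1 CPM in slr-1 and 51.3 to 89.4 in the transgenic genotype. The 3 phloem markers summed to 150 to 205 CPM in untreated slr-1 and 155 to 230 in the untreated transgenic genotype. At 24 h they summed to 116 to 138 and 155 to 160 CPM in the respective genotypes. The 3 pericycle and stele markers summed to 782 to 1067 and 682 to 738 CPM untreated, and to 896 to 995 and 907 to 954 at 24 h. In whole root sections fewer cells of a type and less RNA per cell cannot be told apart, which holds for every value given here.

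The code suffix also divided the PILS5 values within groups. In slr-1 the library with the suffix n was the lowest of its group at 4 h (815 CPM) and 8 h (387 CPM) and the highest at 16 h (279 CPM). Among transgenic roots the n libraries gave 1407 and 1233 CPM at 4 h against 1522 without a suffix, 454 and 425 CPM at 8 h against 659, and 463 CPM at 16 h against 234 and 264. Among libraries with no suffix, the log2 change of PILS5 in slr-1 was 1.52 at 4 h, 0.30 at 8 h, where it passed (adjusted p = 0.0225 by edgeR), -1.54 at 16 h and -2.76 at 24 h. In the transgenic genotype it was 1.07, -0.15, -1.54 and -1.58 at these times among the same libraries, so the directions were those of the full set. PILS6 was divided in the same way. In slr-1 its n library was the lowest at 4 h (34.7 CPM) and 8 h (32.2 CPM) and the highest at 16 h (30.9 CPM). In the transgenic genotype its n libraries lay below the other at 4 and 8 h and above the others at 16 h. PILS3 was divided so in slr-1 at 8 and 16 h and in the transgenic genotype at 4 and 16 h. It was not in slr-1 at 4 h or in the transgenic genotype at 8 h. The means of both genes at these times mix the endings. All 2 h libraries carried a suffix and no untreated library did. In every change at 2 h against untreated roots given here, NAA and the suffix therefore cannot be told apart.

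PILS5 overlaps AT2G17510 (EMB2763) on the opposite strand by 43 bases, and how strand was used in counting is not given. The partner's group means ran from 33.3 to 49.4 CPM, far under those of PILS5 outside slr-1 at 24 h, where PILS5 stood at 62.3 ± 3.03 CPM. The partner changed by 0.013 log2 in slr-1 at 24 h and did not pass (adjusted p = 0.912 by edgeR). At 4 h, when PILS5 was up, the partner was down by the same test. Its log2 change was -0.37 in slr-1 (adjusted p = 0.00113) and -0.29 in the transgenic genotype (adjusted p = 0.013).

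In order of group means PILS5 ran from the transgenic genotype at 2 h (1510.0 ± 134 CPM) down to slr-1 at 24 h (62.3 ± 3.03). Neighbours were separate between the transgenic genotype and slr-1 at 4 h, between slr-1 at 2 h and the untreated transgenic genotype, between the latter and its own 8 h group, and between slr-1 at 16 and at 24 h. The other 7 pairs of neighbours overlapped.

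PILS6 followed a shallow version of the same course, up at 4 h and down at 24 h. In untreated slr-1 it stood at 30.2, 35.1 and 27.8 CPM, at 4 h at 48.1, 45.9 and 34.7, and at 24 h at 21.4, 21.6 and 22.9. In CASP1::shy2-2/slr-1 the untreated libraries gave 35.9, 35.2 and 37.9 CPM, those at 4 h 49.3, 47.2 and 42.6, and those at 24 h 28.3, 27.6 and 26.7. In both genotypes the 24 h libraries lay wholly below the untreated ones, and in slr-1 the lowest 4 h library fell just under the highest untreated one. The change at 4 h was 0.47 ± 0.12 log2 in slr-1 (adjusted p = 0.00319 by edgeR) and 0.35 ± 0.12 in the transgenic genotype (adjusted p = 0.0358). At 24 h it was -0.50 ± 0.12 (adjusted p = 0.00139) and -0.40 ± 0.12 (adjusted p = 0.0091). The 4 h call in the transgenic genotype was lost without replicate 1 or 2 of the untreated or of the 4 h group, and with total count scaling (PILS6 adjusted p = 0.0544).

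At the other times PILS6 did not pass. The log2 change was 0.086 ± 0.12 and 0.21 ± 0.12 at 2 h, 0.18 ± 0.12 and 0.062 ± 0.12 at 8 h, and -0.26 ± 0.12 and -0.25 ± 0.12 at 16 h in slr-1 and the transgenic genotype. Without both 16 h replicates numbered 3 the 16 h falls passed in both genotypes, at -0.41 (PILS6 adjusted p = 0.00591) and -0.37 (adjusted p = 0.0133). In slr-1 the steps from 2 to 4 h (0.38 ± 0.12, adjusted p = 0.0217, with 25.7% of genes called) and from 8 to 16 h (-0.44 ± 0.12, adjusted p = 0.0206) passed edgeR's test. The first was lost without replicate 1 at 2 h or replicate 1 or 2 at 4 h, and the second without replicate 1 or 2 at 8 h or at 16 h (adjusted p up to 0.156). In the transgenic genotype no step of PILS6 passed.

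The genotypes differed in PILS6 at 2 h alone, by 0.36 ± 0.12 log2 (adjusted p = 0.0411 by edgeR), at 40.7 to 43.99 CPM in CASP1::shy2-2/slr-1 and 30.3 to 34.4 in slr-1. That call was lost without any 1 of the 3 slr-1 libraries at 2 h or without replicate 1 or 3 of the transgenic genotype at 2 h (adjusted p up to 0.163). At 24 h the difference was 0.33 ± 0.12 and did not pass edgeR's test (adjusted p = 0.0789), and the libraries did not overlap. The course of PILS6 showed no genotype difference past the threshold (adjusted p = 0.685), and its differences in response lay between -0.11 and 0.13 log2 with SE of 0.17. All 11 pairs of neighbours in the order of group means overlapped, from 46.4 ± 3.45 CPM in the transgenic genotype at 4 h down to 21.9 ± 0.827 in slr-1 at 24 h. PILS6 overlaps AT5G01980 on the opposite strand by 373 bases, and the partner's group means of 20.3 to 27.1 CPM are close in size to those of PILS6. AT5G01980 was lower at 24 h in slr-1 (-0.36, adjusted p = 0.0038 by edgeR) and did not pass in the transgenic genotype (-0.059, adjusted p = 0.666). Reads in the shared bases cannot be told apart where strand was not used.

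PILS2 was the steadiest member and the one that fell from the first NAA time in slr-1. Untreated slr-1 libraries gave 53.2, 48.8 and 43.4 CPM, and the 15 treated libraries of slr-1 lay between 34.5 and 41.5, all below them. The log2 change was -0.28 ± 0.079 at 2 h (adjusted p = 0.00543 by edgeR), -0.35 ± 0.079 at 4 h, -0.32 ± 0.079 at 8 h, -0.42 ± 0.079 at 16 h and -0.28 ± 0.079 at 24 h, all past the threshold. At 24 h the call was lost without replicate 1 of the untreated group (adjusted p = 0.0553), and at 8 h with only the groups compared (PILS2 adjusted p = 0.0595). No step between NAA times passed in either genotype.

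Transgenic roots began at 43.3, 44.02 and 43.7 CPM of PILS2 and reached 39.2, 37.7 and 36.5 at 24 h, with 38.0 to 45.6 CPM at the times between. The course did not pass (adjusted p = 0.187 by edgeR), and the 24 h change of -0.21 ± 0.079 did (adjusted p = 0.0354). That call was lost with total count scaling (PILS2 adjusted p = 0.0652), without any 1 untreated library and without replicate 2 or 3 at 24 h. The genotypes did not differ in PILS2 at any time by the test, with log2 differences from -0.15 ± 0.079 in untreated roots to 0.17 ± 0.079 at 16 h. The differences in response were 0.25 ± 0.11 at 2 h, 0.28 ± 0.11 at 4 h, 0.29 ± 0.11 at 8 h, 0.32 ± 0.11 at 16 h and 0.074 ± 0.11 at 24 h, and none passed, with adjusted p from 0.0705 at 16 h. The difference in course had an adjusted p of 0.09996, and it passed without replicate 3 of untreated slr-1 (PILS2 adjusted p = 0.0232) and under some other settings given in the closing section. Neighbours in the order of group means overlapped in all 11 pairs.

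Counted by time, slr-1 had 3 members called at 2 h (42.8% of all genes), 4 at 4 h (42.1%) and 2 at 8 h (35.8%). It had 3 called at 16 h (44.9%) and 4 at 24 h (50.2%). The transgenic genotype had 2 members called at 2 h (31.1% of all genes), 3 at 4 h (22.5%) and 1 at 8 h (14.9%). It had 2 called at 16 h (29.7%) and 4 at 24 h (42.6%). Between genotypes, 2 members were called in untreated roots (24.9% of all genes), 2 at 2 h (18.3%), 1 at 8 h (14.7%), 2 at 16 h (8.66%) and 1 at 24 h (12.8%). At 4 h none was called between genotypes by edgeR, against 16% of genes, and PILS3 had an unadjusted p under 0.05 and was called by DESeq2. In steps between times, the transgenic genotype had PILS3 called from 8 to 16 h (11.3% of genes) and no member called from 2 to 4 h (11.4%) or from 16 to 24 h (8.58%), where none had an unadjusted p under 0.05 and DESeq2 called none.

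Summed over the 7 PILS genes, transcript per kb of exon followed PILS5. In slr-1 the sum was 304 ± 32.9 CPM per kb untreated, 646 ± 62.4 at 2 h, 723 ± 129 at 4 h, 373 ± 57.0 at 8 h, 189 ± 50.2 at 16 h and 129 ± 7.80 at 24 h. In CASP1::shy2-2/slr-1 it was 499 ± 30.9 untreated, 998 ± 78.0 at 2 h, 917 ± 93.4 at 4 h, 427 ± 77.6 at 8 h, 281 ± 78.0 at 16 h and 233 ± 4.47 at 24 h. The mean sum was thus highest at 4 h in slr-1 and at 2 h in the transgenic genotype, and it ended below its start in both. PILS5 made up 75.2 to 79.0% of the sum in untreated slr-1 libraries and 26.5 to 27.7% at 24 h, while the share of PILS3 went from 6.76 to 10.4% up to 37.7 to 42.01%. The share of PILS5 in transgenic roots went from 80.8 to 83.3% untreated to 58.4 to 59.6% at 24 h, and PILS3 from 8.37 to 10.3% to 23.8 to 25.2%.

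Per kb, PILS5 exceeded PILS3 by 7.23, 11.3 and 11.7 times in the untreated slr-1 libraries (lowest, median and highest). At 24 h the ratio in slr-1 was 0.631, 0.684 and 0.736, so PILS3 was the more abundant of the pair in all 3 libraries. Transgenic roots went from a ratio of 7.87, 8.83 and 9.95 untreated to 2.31, 2.34 and 2.50 at 24 h. PILS5 remained above PILS3 in every library of that genotype and in every slr-1 library before 24 h.

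**Figure D3:**
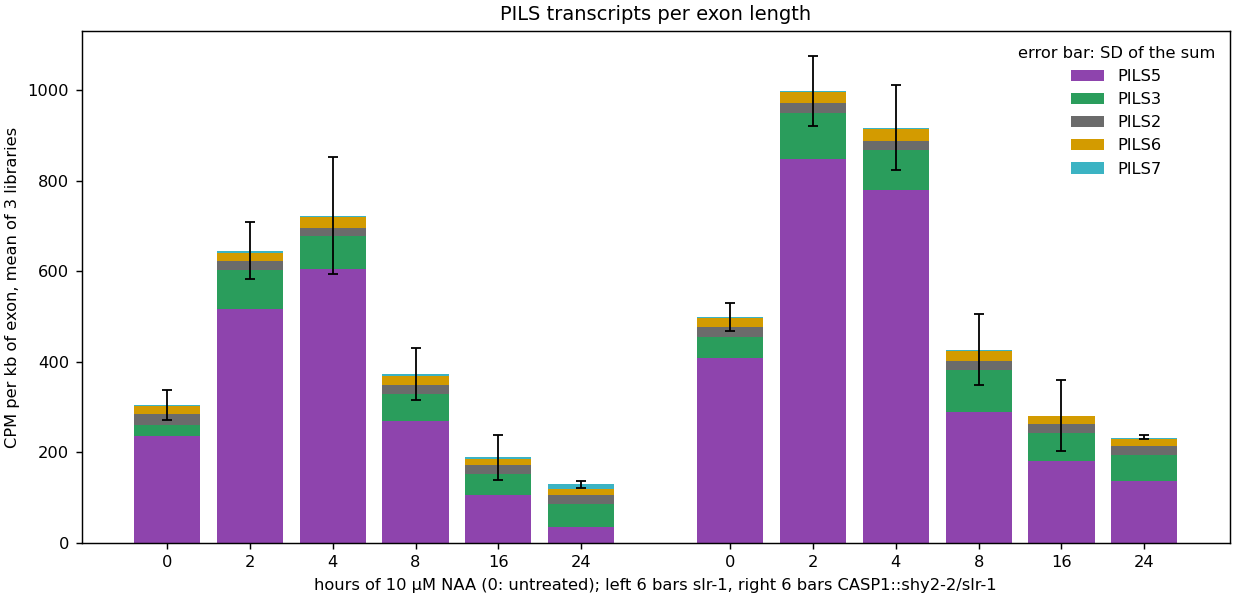
Stacked means of CPM per kb of exon for 5 PILS genes over the 12 groups of 3 libraries, with the SD of the sum as error bar; PILS1 and PILS4 are too low to show. The slr-1 bar falls from 723 at 4 h to 129 at 24 h, and at 24 h its PILS3 segment is taller than its PILS5 segment.

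PILS5 and PILS6 varied together across the series. Pearson's r of their log2 CPM over the 36 libraries was 0.92, and it was 0.90 within the 18 slr-1 libraries and 0.93 within the 18 of the transgenic genotype. PILS3 had r of 0.49 with PILS5 and 0.51 with PILS6, and PILS2 had -0.24 with PILS3 and 0.26 with both PILS5 and PILS6. The libraries share treatment times, genotypes and scaling, so these values describe the courses and carry no test. The 2 libraries that stood apart at 16 h lay higher for both PILS5 and PILS6 than their partners, at 279 and 30.9 CPM in slr-1 and at 463 and 35.7 in the transgenic genotype.

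**Figure D4:**
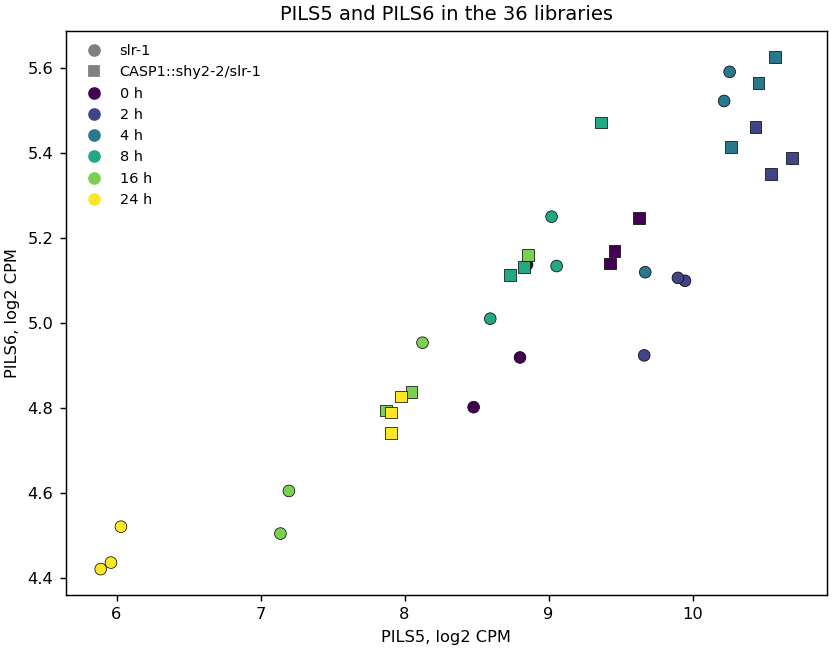
Log2 CPM of PILS6 against log2 CPM of PILS5 in the 36 libraries, with the genotype as shape and the hours of NAA as colour. The slr-1 libraries at 24 h sit at the lower left and the 2 h and 4 h libraries to the right, with r = 0.92.

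Among 17184 genes whose log2 CPM averaged 1 or more, those most like PILS5 over the 36 libraries were ABCG30 (AT4G15230, r = 0.972), a transporter of the pleiotropic drug resistance type, AT1G17147 (VQ motif protein, r = 0.966) and AT3G01513 (uncharacterised, r = 0.958). Closest to PILS3 were UGT75B1 (AT1G05560, r = 0.957), a glucosyltransferase, BGLU10 (AT4G27830, r = 0.927), a beta glucosidase, and AT1G79710 (r = 0.924), a protein of the major facilitator superfamily. PILS6 was most like AT3G53100 (r = 0.945), a GDSL lipase family gene, AT1G53180 (r = 0.943) and AT3G27884 (r = 0.937). For PILS2 the closest were PYD2 (AT5G12200, r = 0.896), an enzyme of pyrimidine breakdown, NPC1 (AT1G07230, r = 0.880), a phospholipase C, and EX2 (AT1G27510, r = 0.878).

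The remaining 3 family members were low. PILS1 had 3 to 16 reads in a library and PILS4, the neighbour of PILS3, 0 to 13, and PILS4 did not pass the filter. PILS3 and PILS4 thus lie side by side on one strand and were read at very different depths. PILS7 held 3.396, 3.11 and 2.01 CPM in untreated slr-1 and 18.02, 18.2 and 20.7 at 24 h, against 1.58, 1.70 and 1.65 untreated and 7.10, 6.27 and 5.46 at 24 h in CASP1::shy2-2/slr-1. Its libraries at 24 h lay above the untreated ones in both genotypes, the opposite side from PILS5. The log2 change of PILS7 at 24 h was 2.74 in slr-1 (adjusted p = 0.000285 by edgeR) and 1.93 in the transgenic genotype (adjusted p = 0.00911). At 2 h PILS7 changed by 1.70 (adjusted p = 0.0165) and 1.69 (adjusted p = 0.0306), calls that were lost without replicate 3 of untreated slr-1 and without any of 5 libraries of the transgenic genotype. The genotypes differed in PILS7 at 24 h by -1.60 (adjusted p = 0.0478), a call that was lost with no filter on low counts (adjusted p = 0.0661) and in 20 of the 36 fits that left out 1 library, among them each of the 6 libraries compared (adjusted p up to 0.153). Replicate 3 at 16 h gave 2.14 and 0.427 CPM of PILS7 against 7.24 and 7.26 and against 3.301 and 2.91 in its partners.

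Other genes of auxin transport and turnover are given beside the shares of all genes called, which were 42.8% at 2 h and 50.2% at 24 h in slr-1 and 31.1% and 42.6% in the transgenic genotype. Of 7 PIN efflux carrier genes tested, 4 rose and none fell in slr-1 at 2 h, with a median log2 change of 0.94 against -0.049 over all genes, and 4 rose and 1 fell at 24 h. In the transgenic genotype 2 rose and 1 fell at 2 h, with a median of -0.065, and 4 rose and 1 fell at 24 h. PIN4 rose by 2.00 at 2 h in slr-1 and had 0.52, not past the threshold, in the transgenic genotype, with a difference in response of -1.48 that passed. PIN3 and PIN7 rose by 1.57 and 1.43 at 24 h in the transgenic genotype.

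Of the 4 AUX1 and LAX influx carrier genes, 2 rose at 2 h and 2 at 24 h in slr-1, and in CASP1::shy2-2/slr-1 1 rose and 1 fell at 2 h. AUX1 rose by 0.80 log2 at 2 h in slr-1 and LAX3 fell by 1.42 at 2 h in the transgenic genotype. Among 6 genes of the ABCB transporters, their partner TWD1 and the vacuolar exporter WAT1, 2 rose and 1 fell in slr-1 at 2 h and 1 rose and 3 fell in the transgenic genotype, so the slr-1 counts of both lists are near the share of all genes. ABCB4 rose by 1.34 in slr-1 and 0.55 in the transgenic genotype at 2 h, ABCB19 by 0.91 and 1.14 at 24 h, and ABCB1 by 0.44 and 0.50 at 24 h.

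Of 9 GH3 and DAO genes tested, which conjugate or oxidise auxin, 6 rose and 2 fell in slr-1 at 2 h, with a median log2 change of 1.83, and 4 rose and 2 fell in the transgenic genotype, with a median of 0.75, counts above the shares of all genes. GH3.2 and GH3.3, which join auxin to amino acids, rose by 4.02 and 4.06 at 2 h in slr-1 and by 1.53 and 1.301 in the transgenic genotype, with differences in response of -2.50 and -2.76 that passed. GH3.2 was also higher in untreated transgenic roots, by 2.38 log2, as PILS3 was by 0.94. Of 6 amide hydrolase genes tested, which release auxin from conjugates, 2 rose and 1 fell in slr-1 at 2 h and 1 rose in the transgenic genotype, near the share of all genes in slr-1 and below it in the transgenic genotype. IAR3 rose by 0.32 and 0.49 at 2 h in the respective genotypes, and ILR1 by 0.44 at 24 h in slr-1.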

How the data were processed

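The deposited tables hold 1 read count per gene and library. Per the submitters' processing notes, the authors' tools were cutadapt 1.3, STAR 2.4.0a and HTSeq 0.6.1 with the TAIR10 build, and per the labels' protocols libraries were stranded, poly(A)-selected and read from one end. How strand was used in counting is not given in the sources used here. Counts were used as deposited. The 5 summary categories (5.28 to 11.2% of reads) and 6182 genes with no read carry no test, and 20939 of 32678 genes passed edgeR's filterByExpr.

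TMM scaling and edgeR 4.0.16 (quasi-likelihood, robust) in R 4.3.3 gave 1 mean per group over 36 libraries with 24 residual degrees of freedom. SE was the log2 change divided by the square root of F, and log2 CPM used a prior count of 2. DESeq2 1.42.0 was an alternative, as were RLE and total count scaling, no filter, genes kept at a mean CPM of 5 or more, the replicate number as a block, a suffix term, subsets of libraries and each library left out. The method was tested on simulated data. Within-group chi-square per degree of freedom was 3.90 to 114, so no library was a copy of another in its group. Libraries of different groups were not compared in this way. Same-numbered libraries deviated together (all 3 correlations above 0.1) in 1 of 16 comparisons, the genotypes at 16 h, where those numbered 3 share a code suffix. The check set each NAA group against its own untreated group and the genotypes against each other at equal times. It did not set one NAA time against another, so pairing in the steps between times was not examined. Elsewhere the numbers were not taken as pairs. The genes named are the members, the other PILS genes, the 3 genes most correlated with each member, and from each list those with the smallest p in the slr-1 course and in the course difference. IAA3 and the overlapping genes were added after values were seen. The members and lists were chosen with earlier results of these data known. A promoter window and a carrier gene are not reported here.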

Additional observations from a re-analysis of the deposited data

Results flagged for a closer look

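The responses of PILS3 and PILS5 differed between the genotypes by the test of the difference itself, edgeR's quasi-likelihood test with Benjamini-Hochberg adjustment over 20939 genes. For PILS3 the response in CASP1::shy2-2/slr-1 minus that in slr-1 was -0.71 log2 at 2 h, -0.64 at 4 h, -0.53 at 16 h and -0.78 at 24 h. For PILS5 it was 1.18 at 24 h. Over the whole course the adjusted p of the genotype difference was 0.00222 for PILS3 and 0.00192 for PILS5. The PILS3 differences go with a higher untreated level in CASP1::shy2-2/slr-1 (111 ± 6.09 CPM, n = 3) than in slr-1 (58.0 ± 7.89 CPM, n = 3), and the PILS5 difference with 244 ± 6.78 CPM against 62.3 ± 3.03 CPM at 24 h. With 3 libraries a group, no formal test for a single outlying library was made.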

How the results depend on the processing

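Courses of PILS3, PILS5 and PILS6 in each genotype, and the course differences of PILS3 and PILS5, kept their side of the threshold under every alternative run. The replicate block changed no call of a member, with adjusted p for the course difference of 0.00296 for PILS3 and 0.00265 for PILS5, and only the PILS7 genotype difference at 24 h was lost (0.0565). The PILS2 course in the transgenic genotype CASP1::shy2-2/slr-1 passed with the libraries without a suffix alone (0.0403). The PILS2 course difference passed with suffix n as a term (0.0392) and without replicate 3 of both untreated slr-1 and the transgenic genotype at 8 h (0.029), and ran from 0.0232 to 0.162 with each library left out. Libraries without a suffix hold no 2 h group and 1 library in some groups, which are assumed to vary like the rest.

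Reversals touched values that no test had called. Without those 2 libraries they were PILS6 at 8 h in the transgenic genotype (-0.057), the genotype differences at 8 h of PILS5 (-0.12) and PILS6 (-0.0068), and the PILS5 differences in response at 2 h (0.048) and 16 h (0.10). Without both 16 h replicates numbered 3, an alternative chosen after seeing the data as was the block in the 16 h groups alone, the last was 0.0072. Among libraries without a suffix the PILS3 step from 4 to 8 h in the transgenic genotype was -0.093 and the PILS6 difference in response at 8 h 0.066. The PILS6 difference in response at 16 h was -0.034 with total count scaling and -0.016 with genes kept at a mean CPM of 5 or more. With each library left out the range crossed 0 for PILS2 in the slr-1 step from 4 to 8 h (-0.036 to 0.080) and, in the transgenic genotype, at 2 h (-0.075 to 0.020), at 8 h (-0.048 to 0.023) and in the steps from 2 to 4 h (-0.11 to 0.023) and 4 to 8 h (-0.027 to 0.12). It also did for the PILS3 step from 4 to 8 h (-0.011 to 0.14) and PILS6 at 8 h (-0.057 to 0.13) there, the genotype differences of PILS6 at 4 h (-0.0049 to 0.21) and 8 h (-0.0069 to 0.18) and of PILS5 at 8 h (-0.12 to 0.22), and the differences in response of PILS5 at 2 h (-0.14 to 0.048) and 16 h (-0.38 to 0.36) and of PILS6 at 16 h (-0.11 to 0.15) and 24 h (-0.0056 to 0.17). The cause was not tested.

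Counts of all genes called moved by over 1.5 times in some comparisons. With only the groups compared in the fit they went from 5223 to 2915, 3824 to 1940, 3069 to 1757 and 1814 to 658 between genotypes at 0, 2, 8 and 16 h and from 2673 to 6602 at 24 h, from 3258 to 1077 and 1976 to 790 for the difference in response at 2 and 16 h, from 9398 to 5242 in slr-1 at 16 h, and from 6508 to 2769 and 6225 to 2394 in the transgenic genotype at 2 and 16 h. With suffix n as a term the genotype count at 2 h was 6309 and the response counts at 2 and 16 h 6308 and 3312. Among libraries without a suffix the genotype counts at 4, 8 and 24 h were 1824, 1371 and 4915 (3355 in the full fit at 4 h), the 24 h response count 5406 (2897 in the full fit) and the 16 h count in the transgenic genotype 9601. Leaving out the 2 libraries gave 4409 for the response at 4 h (2501 in the full fit) and 2976 at 16 h, and leaving out both 16 h replicates numbered 3 gave 5122 between genotypes at 4 h and 3938 and 1249 for the response at 4 and 16 h. For steps between times, the groups compared alone gave 696 (2101 in the full fit) and 812 (2055 in the full fit) in slr-1 from 4 to 8 and 8 to 16 h, and 303 (2384 in the full fit), 226 (2375 in the full fit) and 1112 (1797 in the full fit) in the transgenic genotype from 2 to 4, 8 to 16 and 16 to 24 h. Libraries without a suffix gave 6937 and 6724 (3109 in the full fit) in slr-1 from 8 to 16 and 16 to 24 h, and 776 (3263 in the full fit) and 4521 in the transgenic genotype from 4 to 8 and 8 to 16 h. Without both 16 h replicates numbered 3 the slr-1 counts were 5013 and 5228 and the transgenic 8 to 16 h count 5364, and a mean CPM of 5 or more gave 1153 for the last step.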
